A study of Mus musculus with 35 samples.

Results

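The 9 genes described here encode components and receptors of complement, out of 32544 gene symbols counted in mouse hippocampus. They were picked out by their symbols, and all 9 were found: the 3 chains of C1q (C1qa, C1qb and C1qc), the central components C3 and C4b, the receptors C3ar1, C5ar1 and Itgam, and the inhibitor Serping1. The mice had received an intra-amygdala injection of kainic acid (IA-KA), a glutamate receptor agonist that triggers status epilepticus, or of PBS (IA-PBS), and hippocampi were taken 24 hours or 2 weeks later. Per the study's methods they were adult males of the C57BL/6JOlaHsd strain, implanted with a cannula before the injection, and kainic acid was followed by lorazepam to limit the seizures. RNA was sequenced as total RNA (input) or after immunoprecipitation with an antibody against the RNA modification m6A (m6A-IP). Each library came from 1 mouse, named by its number in the labels. The m6A-IP libraries were from 5 IA-KA and 3 IA-PBS mice at 24 hours and from 6 IA-KA and 5 IA-PBS mice at 2 weeks. Input libraries with 100000 or more counts were from 3 IA-KA and 1 IA-PBS mice at 24 hours and from 6 IA-KA and 3 IA-PBS mice at 2 weeks. Another 3 input libraries at 24 hours held 3171, 4621 and 34486 counts and were not used for levels.

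Complement is a cascade of plasma and tissue proteins that tags targets for uptake and recruits immune cells. C1q recognises targets and starts the classical pathway, C4b carries it to C3, and cleavage of C3 and C5 releases small peptides that signal through the receptors encoded by C3ar1 and C5ar1, while C3 fragments left on a surface bind complement receptor 3, whose alpha chain is Itgam. In brain, C1q is made mainly by microglia, C3 and C4 by glia, and the cascade is known for the tagging of synapses that microglia remove.

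Total counts of the libraries used ran from 3057578 to 12694434 for input and from 1652933 to 34564536 for m6A-IP. Levels are given as CPM, the counts of a gene scaled to the total of the library, so 1 count in the shallowest m6A-IP libraries, those of the IA-KA mice 98 and 67 at 24 hours, weighs far more than in the deepest. In 7 of the libraries 23000 or more genes were detected, and these were the input libraries of IA-PBS mouse 1 and IA-KA mouse 8 at 24 hours, the m6A-IP libraries of IA-PBS mice 71 and 1 and IA-KA mice 79 and 8 at 24 hours, and that of IA-KA mouse 6 at 2 weeks. Mitochondrial genes took 16.4% of the m6A-IP counts and 17.4% of the input counts of mouse 8, and 17.5% of the m6A-IP counts of mouse 6. Markers of hippocampal neurons were present in every group, with summed levels of 423 to 1939 CPM over the libraries. The assay of 27 of the 35 libraries was read from the prefix of the data column, since only 8 libraries have columns that name it. The sets of libraries that share a prefix were not balanced between treatments. All m6A-IP libraries with prefix 3 were IA-KA (mice 67, 98 and 8 at 24 hours, 42, 5 and 6 at 2 weeks). Those with prefix 4 at 2 weeks (mice 50 and 78) were IA-PBS. At 2 weeks the input libraries whose columns name the assay (mice 7, 9 and 6) were IA-KA. For these libraries set and treatment cannot be told apart.

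The 3 C1q genes lie side by side on chromosome 4 within 18.7 kb (chr4:136880126-136898844, GRCm38.p6), while C3 and C4b lie on chromosome 17, C3ar1 on chromosome 6, C5ar1 and Itgam on chromosome 7 and Serping1 on chromosome 2. RefSeq gave promoter sequence, 250 bases before to 50 after the start, for 6 of the 9 members, all but C1qa, C4b and Serping1. Those of C1qb, C1qc, C3 and C3ar1 are shown, because the C1q genes had closely matched levels across libraries and because, in the m6A-IP libraries 24 hours after IA-KA, C3 had the largest difference and C3ar1 was the member that did not overlap between treatments. Each is written 5′ to 3′ on the strand of the gene, the minus strand for all 4, on GRCm38.p6 at chr4:136886151-136886450 for C1qb, chr4:136892865-136893164 for C1qc, chr17:57228087-57228386 for C3 and chr6:122856108-122856407 for C3ar1. Capitals mark AGGAAG or its reverse complement CTTCCT, the core bound by PU.1 and other ETS factors, in C1qb, C1qc and C3ar1, and TTGCNNAA, a C/EBP-type motif, in C3.
C1qb: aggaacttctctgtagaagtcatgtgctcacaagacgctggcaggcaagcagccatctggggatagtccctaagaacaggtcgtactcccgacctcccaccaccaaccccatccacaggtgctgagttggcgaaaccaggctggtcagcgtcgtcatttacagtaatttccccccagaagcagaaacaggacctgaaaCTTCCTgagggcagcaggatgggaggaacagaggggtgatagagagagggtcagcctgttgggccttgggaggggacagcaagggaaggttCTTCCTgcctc
C1qc: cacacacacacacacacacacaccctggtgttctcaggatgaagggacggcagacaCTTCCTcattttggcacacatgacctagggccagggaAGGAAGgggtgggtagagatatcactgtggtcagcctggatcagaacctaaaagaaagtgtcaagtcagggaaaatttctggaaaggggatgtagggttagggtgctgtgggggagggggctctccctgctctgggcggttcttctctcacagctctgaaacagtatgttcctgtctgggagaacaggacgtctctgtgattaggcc
C3: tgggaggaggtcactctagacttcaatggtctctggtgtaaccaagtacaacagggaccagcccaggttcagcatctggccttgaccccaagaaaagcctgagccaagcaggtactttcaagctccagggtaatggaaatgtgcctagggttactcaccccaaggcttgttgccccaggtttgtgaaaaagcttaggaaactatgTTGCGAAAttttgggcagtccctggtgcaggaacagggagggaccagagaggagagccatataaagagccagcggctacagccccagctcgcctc
C3ar1: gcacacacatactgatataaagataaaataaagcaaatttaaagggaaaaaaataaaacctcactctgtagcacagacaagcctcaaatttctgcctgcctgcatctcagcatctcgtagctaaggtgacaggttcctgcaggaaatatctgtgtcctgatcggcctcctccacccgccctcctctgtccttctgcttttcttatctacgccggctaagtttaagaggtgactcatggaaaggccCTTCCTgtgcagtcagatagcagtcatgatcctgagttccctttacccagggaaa

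AGGAAG, searched on both strands, was in 5 of the 6 member promoters (C1qb, C1qc, C3ar1, C5ar1 and Itgam, not C3), and in 35.4% of all 32851 RefSeq promoters of this length. TTGCNNAA was in the C3 promoter alone among the 6, first base 45 bases before the start, and in 10.8% of all promoters. The AP-1-type motif TGANTCA, in 7.81% of all promoters, and the NF-kB-type motif, in 4.79%, were each in C3ar1 alone among the 6. The AP-1 match lay clear of the others, and the last base of the NF-kB match, on the minus strand, was the first base of the marked CTTCCT. The STAT-type TTCNNNGAA (8.3% of all promoters) and the ISRE-type motif (3.44%) were in none of the 6. These matches describe letters in a window and were not tested for binding.

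Levels between genes were compared only per kilobase of the canonical transcript (GENCODE vM39), as mean CPM per kb in the 3 input libraries of IA-PBS mice at 2 weeks. Itgam stood highest with 7.58, followed by C1qa with 5.21, C1qc with 3.06, C1qb with 2.96, C4b with 2.16 and Serping1 with 1.32. The anaphylatoxin receptor gene C3ar1 had 0.669, C3 had 0.266 and C5ar1 had 0.075. C3 and C5ar1 were thus the scarcest members in these 3 input libraries, where C3 had 4 to 9 counts and C5ar1 0 to 2 counts per library. At 24 hours C3 was not as scarce, with 82 counts in the input library of IA-PBS mouse 1. In the m6A-IP libraries of IA-PBS mice at that time C3 had 2.34 CPM per kb and C3ar1 1.15. The order was not the same in all groups. C1qa stood above Itgam in input libraries of IA-KA mice at 2 weeks (14.4 against 9.54 CPM per kb). The sources used here do not say whether intronic reads were counted, which would raise the values per kilobase. Genes could be raised unequally, so the order may depend on it.

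**Figure D1:**
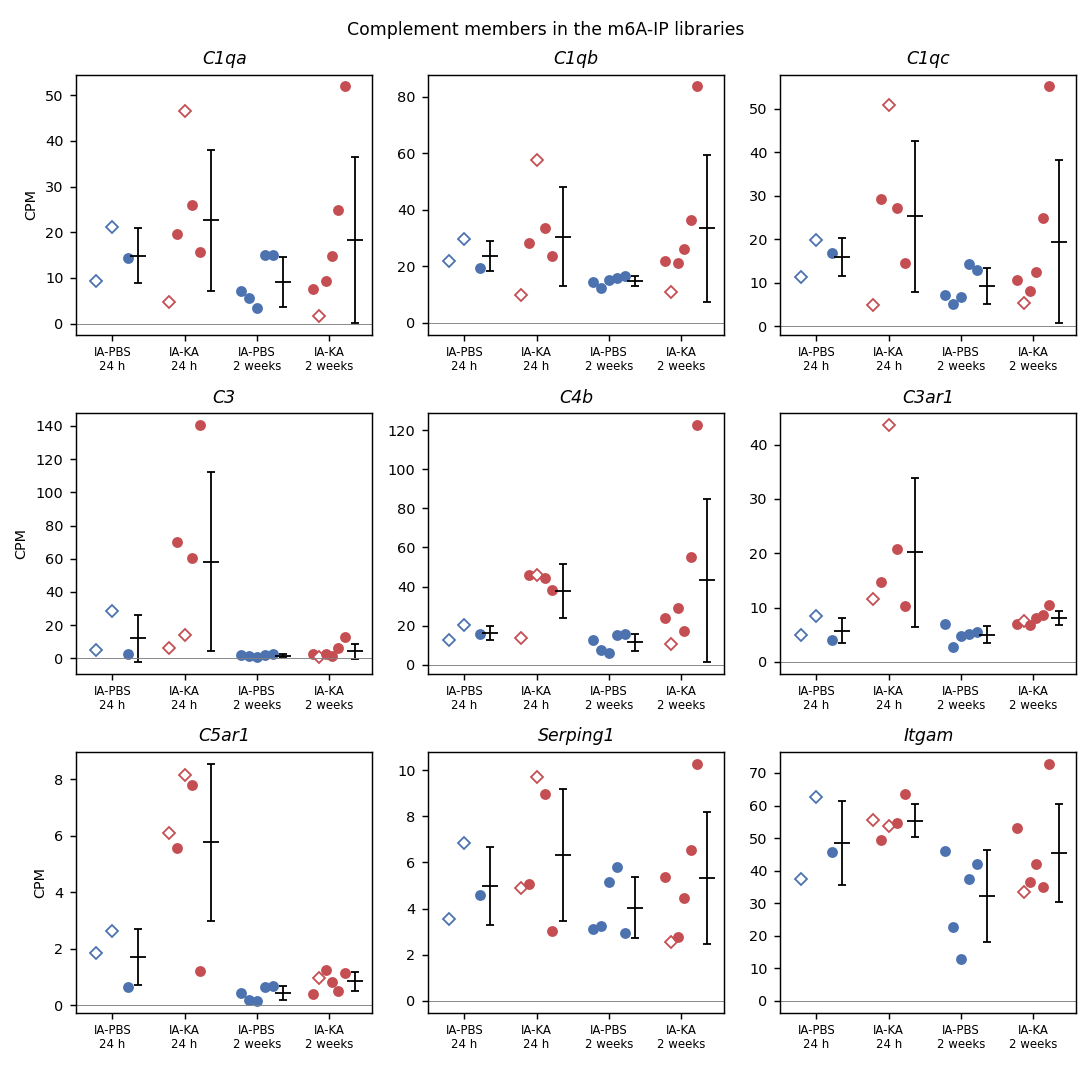
CPM of each complement gene in every m6A-IP library by treatment and time (blue IA-PBS, red IA-KA; open diamonds are the libraries with 23000 or more genes detected), with the group mean and SD as black bars. C3ar1 at 24 hours is the only panel and time at which all IA-KA libraries (10.3 to 43.6) lie above all IA-PBS libraries (4.01 to 8.42).

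At 24 hours after IA-KA, all 9 complement genes had higher estimates than after IA-PBS in the m6A-IP libraries, as did 58% of all genes tested, but none passed the adjusted threshold. The largest differences were those of C3, C5ar1, C3ar1 and C4b, and the C1q chains, Serping1 and Itgam differed less. C3ar1, the receptor for C3a, was at 14.6, 10.3, 20.9, 43.6 and 11.5 CPM in IA-KA mice 67, 98, 97, 79 and 8 and at 8.42, 4.01 and 4.87 CPM in IA-PBS mice 71, 73 and 1. Every IA-KA library was above every IA-PBS library, a separation seen in this direction for 2.62% of the 16470 genes tested. The log2 difference was 1.79 (SE 0.48, edgeR adjusted p = 0.453, unadjusted p = 0.0038).

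C3, the component on which all pathways of complement converge, spread most. It was at 70.2, 140, 60.6, 13.9 and 6.31 CPM in IA-KA mice 67, 98, 97, 79 and 8 and at 28.3, 2.72 and 5.17 CPM in IA-PBS mice 71, 73 and 1. The 3 highest libraries were all from IA-KA mice, but mice 79 and 8 lay below IA-PBS mouse 71. Both IA-KA libraries below that level and the IA-PBS library above it were among those with 23000 or more genes detected, and the part of this in the result was not tested. The log2 difference of C3 was 2.22 (SE 1.01, edgeR adjusted p = 0.952). It was 4.89 without the 4 libraries at this time that had 23000 or more genes detected, with 1 IA-PBS mouse left. That exclusion was chosen after the data were seen and took out the libraries that made the treatments overlap, so a larger value had to follow. Within the library set whose columns carry prefix 4, with 2 mice per treatment, the log2 difference was 1.14.

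C4b, which carries the classical pathway from C1 to C3, was at 46.0, 38.1, 44.4, 46.1 and 13.7 CPM in IA-KA mice 67, 98, 97, 79 and 8 and at 20.1, 15.9 and 12.8 CPM in IA-PBS mice 71, 73 and 1. In 4 of the 5 IA-KA mice it lay between 38.1 and 46.1, above all IA-PBS libraries, and mouse 8 lay among the IA-PBS values. The log2 difference was 1.14 (SE 0.33, edgeR adjusted p = 0.535), 1.32 without mouse 8 and 1.21 within the prefix 4 set. Reads of C4b may be shared with C4a, which RefSeq lists as a transcribed pseudogene 65.2 kb away on chromosome 17 and which has no row of its own in the counts.

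C5ar1, the receptor for C5a, was at 5.56, 1.21, 7.80, 8.16 and 6.08 CPM in IA-KA mice 67, 98, 97, 79 and 8 and at 2.62, 0.644 and 1.85 CPM in IA-PBS mice 71, 73 and 1. IA-KA mouse 98, with 2 counts, lay within the IA-PBS range and the other IA-KA mice above it. The log2 difference was 1.82 (SE 0.60, edgeR adjusted p = 0.63). The other receptor gene, Itgam, was already at 37.4 to 62.5 CPM in IA-PBS mice against 49.5 to 63.5 CPM in IA-KA mice, a log2 difference of 0.21 (SE 0.27) whose sign turned within the prefix 4 set (-0.11).

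The C1q genes ranged widely among the IA-KA mice at 24 hours and enclosed the IA-PBS values. C1qa was at 19.7, 15.7, 26.1, 46.5 and 4.82 CPM in IA-KA mice 67, 98, 97, 79 and 8 and at 21.1, 14.4 and 9.23 CPM in IA-PBS mice 71, 73 and 1. Mouse 79 was the highest and mouse 8 the lowest of all 8 libraries for each of the 3 chains. The log2 differences were 0.53 (SE 0.53) for C1qa, 0.31 (SE 0.40) for C1qb and 0.58 (SE 0.53) for C1qc, and without mouse 79 they were 0.061, -0.064 and 0.13. Serping1, whose product inhibits the C1 proteases, had a log2 difference of 0.37 (SE 0.40), with 3.02 to 9.69 CPM in IA-KA and 3.54 to 6.85 CPM in IA-PBS libraries.

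With edgeR, 0 of the 9 members and 0.00607% of the 16470 genes tested passed an adjusted p of 0.05 in the m6A-IP libraries at 24 hours. Without mouse 8, 45 of 16112 genes passed and again no member. At an unadjusted p under 0.05, 3 of the 9 (C4b, C3ar1 and C5ar1) were higher in IA-KA and none lower, against 4.02% of all genes higher. DESeq2 called C3ar1, and voom with sample quality weights called C3ar1, C4b and C5ar1. These tools called 0.978% and 6.81% of all genes tested. The median log2 difference was 0.58 over the members and 0.08 over all genes.

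Marker genes of other cells moved unevenly at 24 hours. The 12 microglial markers had summed levels of 176 to 371 CPM in IA-KA and 237 to 274 CPM in IA-PBS m6A-IP libraries, 6 of the 12 had a higher and 6 a lower estimate, and none was at 0. The 10 markers of monocytes and neutrophils had summed levels of 35.1 to 271 CPM (median 44.1) in IA-KA and 32.3 to 62.2 CPM (median 49.7) in IA-PBS libraries. All 6 that could be tested had higher estimates, against 58% of all genes. The highest sum was that of mouse 8, whose C1q, C3 and C4b levels were the lowest of its group. Estimates were also higher for 6 of 6 choroid plexus, 4 of 4 border macrophage and 4 of 5 endothelial markers. For lymphocyte and blood markers it was 3 of 4 each, and for astrocyte markers 4 of 8. Lower estimates were found for 7 of 8 hippocampal, 6 of 8 neuronal, 5 of 6 oligodendrocyte and 4 of 6 meningeal and fibroblast markers. The part of these cells in the values was not tested, and in bulk tissue fewer cells of a type and less RNA per cell cannot be told apart.

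**Figure D2:**
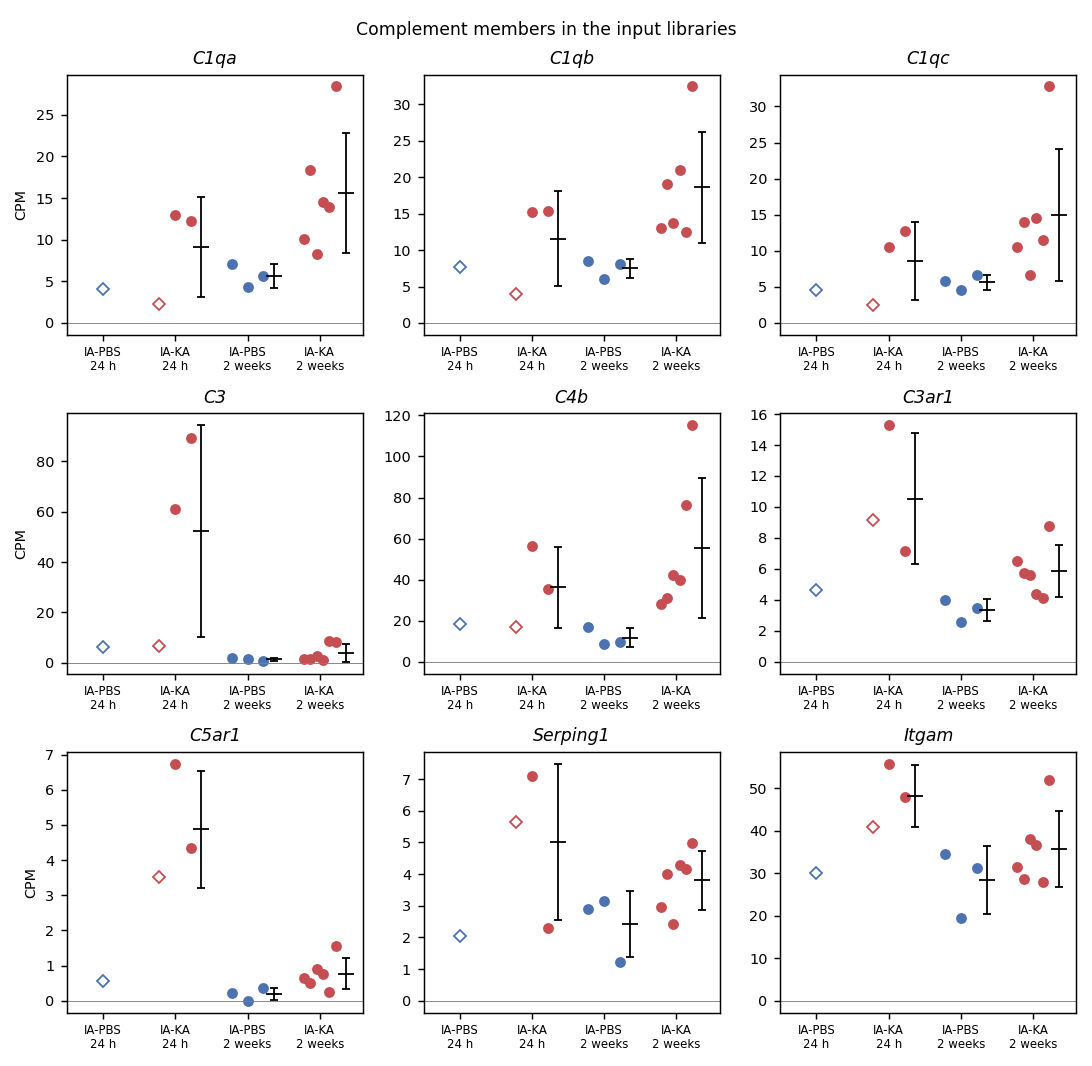
CPM of each complement gene in every input library with 100000 or more counts (blue IA-PBS, red IA-KA; open diamonds are the libraries with 23000 or more genes detected), with the group mean and SD as black bars where a group has more than 1 library. At 2 weeks C4b lies at 28.1 to 115 in IA-KA and 8.55 to 17.1 in IA-PBS mice, and the 3 C1q genes do not overlap between treatments either.

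In the input libraries at 24 hours C5ar1 and C3 had the largest estimates, followed by Serping1 and C3ar1. Only 1 IA-PBS library was there to compare with, so the spread was taken from all 13 input libraries. C3 was at 61.1, 89.3 and 6.76 CPM in IA-KA mice 67, 98 and 8 and at 6.46 CPM in IA-PBS mouse 1. C5ar1 was at 6.73, 4.35 and 3.53 CPM in the same IA-KA mice and at 0.551 CPM, or 7 counts, in IA-PBS mouse 1. Mouse 8 thus had a C3 level close to that of the IA-PBS mouse but a C5ar1 level above it. The log2 difference was 3.24 (SE 1.29, edgeR adjusted p = 0.485) for C3 and 3.38 (SE 0.99, edgeR adjusted p = 0.361) for C5ar1. All 9 members had estimates above 0, as did 65.9% of all genes, whose median was 0.27 after TMM normalization, a correction for library composition. When only library totals were used it was -0.04.

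C3ar1 was at 15.3, 7.17 and 9.18 CPM in IA-KA mice 67, 98 and 8 and at 4.65 CPM in IA-PBS mouse 1, a log2 difference of 1.49 (SE 0.48). C4b was at 56.4, 35.3 and 16.9 CPM against 18.6 CPM, so that mouse 8 lay below the IA-PBS mouse, as it did for the 3 C1q chains. The log2 difference of C4b was 1.22 (SE 0.78), that of C1qa 1.36 (SE 0.81), of C1qb 0.81 (SE 0.63) and of C1qc 1.12 (SE 0.84). Serping1 at 1.63 (SE 0.69) and Itgam at 0.98 (SE 0.35) were higher in each IA-KA library than in the IA-PBS library.

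In this comparison edgeR called 0 of the 9 members and 0% of 17644 genes. Without mouse 8 it called 180 of 15232 genes and again no member. With all libraries 5 of the 9 had an unadjusted p under 0.05, all higher, against 4.99% of all genes. For 5 members (C3, C3ar1, C5ar1, Serping1 and Itgam, with 1 control) every IA-KA library was above the IA-PBS library, which holds for 10.9% of all genes. Voom with quality weights called C3, C3ar1, C5ar1 and Itgam, and DESeq2 called none of the 8 members for which it gave an adjusted p (all but C5ar1). They called 5.99% and 1.17% of all genes. No value exists without IA-PBS mouse 1, which has 23000 or more genes detected. The monocyte and neutrophil markers summed to 33.5 to 187 CPM in IA-KA libraries and 51.1 CPM in the IA-PBS library, with Ly6g at 0 in the latter and the highest sum in mouse 8. The 5 blood markers summed to 11.8 to 38.7 CPM against 7.72 CPM, with 5 of 5 above the IA-PBS library in every IA-KA library. Estimates were also higher for 5 of 5 endothelial, 8 of 12 microglial and 6 of 8 astrocyte markers, against 65.9% of all genes. They were lower for 6 of 8 neuronal, 6 of 8 hippocampal and 5 of 6 oligodendrocyte markers. Of the microglial markers, 0 were above the IA-PBS library in every IA-KA library and 4 were below it in every one. For astrocyte markers these numbers were 2 and 2. The part of these cells in the result was not tested.

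At 2 weeks the order of the members was different: C4b had the largest estimate in the input libraries, followed by C1qa, C3, C1qc and C1qb within a narrow range, and the level of C3 was low in both treatments. C4b was at 28.1, 40.9 and 115 CPM (lowest, median and highest of 6) in IA-KA mice and at 17.1, 8.55 and 9.61 CPM in IA-PBS mice 2, 3 and 4. All IA-KA libraries were above all IA-PBS libraries. The log2 difference was 2.27 (SE 0.51, edgeR adjusted p = 0.242), and 1.90 without mouse 42, the highest.

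C1qa was at 8.31, 14.2 and 28.4 CPM (lowest, median and highest) in IA-KA mice and at 7.11, 4.28 and 5.59 CPM in IA-PBS mice 2, 3 and 4. C1qb was at 12.5, 16.4 and 32.5 CPM in IA-KA mice and at 8.44, 5.99 and 8.04 CPM in IA-PBS mice, and C1qc at 6.65, 12.7 and 32.8 CPM against 5.77, 4.56 and 6.64 CPM. The treatments did not overlap for any of the 3 chains, though for C1qc the lowest IA-KA library was at the level of the highest IA-PBS library. The log2 differences were 1.48 (SE 0.39), 1.34 (SE 0.33) and 1.40 (SE 0.47) for C1qa, C1qb and C1qc, with edgeR adjusted p values of 0.242, 0.242 and 0.277. Without mouse 42 they were 1.24, 1.12 and 1.03.

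C3ar1 did not overlap either, at 4.15, 5.68 and 8.74 CPM in IA-KA mice and at 4.00, 2.57 and 3.50 CPM in IA-PBS mice, a log2 difference of 0.80 (SE 0.29). C3 was at 1.26, 2.03 and 8.79 CPM in IA-KA mice and at 2.00, 1.43 and 0.699 CPM in IA-PBS mice. Mice 21 and 42, at 8.79 and 8.12 CPM, stood apart from the other 4 IA-KA mice, which were at 2.56 CPM or less. The log2 difference of C3 was 1.47 (SE 0.78), that of Serping1 0.72 (SE 0.38) and that of Itgam 0.36 (SE 0.21), each with overlapping groups. C5ar1 had at most 7 counts per library, was removed by the filter on low counts and was not tested.

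With edgeR, 0 of the 8 members tested and 0% of 13752 genes passed the adjusted threshold in the input libraries at 2 weeks. At an unadjusted p under 0.05, 5 of the 8 (the 3 C1q chains, C4b and C3ar1) were higher, against 8.41% of all genes. The same 5 had every IA-KA library above every IA-PBS library, which holds for 2.64% of all genes. DESeq2 and voom with quality weights each called C1qa, C1qb and C4b (adjusted p 0.0231, 0.0189 and 0.0095 with DESeq2 and 0.0319, 0.0229 and 0.0375 with voom), where they called 0.822% and 2.6% of all genes. All 8 had estimates above 0, against 52.4% of all genes, and the median log2 difference was 1.37 over the members tested and 0.02 over all genes.

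In the m6A-IP libraries at 2 weeks all 9 members again had higher estimates in IA-KA mice, against 49.8% of all genes tested. C4b was at 10.8, 26.7 and 122 CPM (lowest, median and highest of 6) in IA-KA mice and at 15.1, 15.8, 12.5, 7.51 and 6.08 CPM in IA-PBS mice 50, 78, 2, 3 and 4. Mouse 6 lay within the IA-PBS range and the other IA-KA mice above it. The log2 difference was 1.96 (SE 0.53, edgeR adjusted p = 0.875), 1.32 without mouse 42 and 2.03 within the prefix 5 set.

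C1qb was at 11.1, 24.0 and 83.6 CPM in IA-KA mice and at 15.9, 16.7, 14.6, 12.2 and 15.4 CPM in IA-PBS mice, and here too only mouse 6 fell within or below the IA-PBS range. Its log2 difference was 1.21 (SE 0.39). C1qa, at 1.55 to 51.9 CPM, and C1qc, at 5.47 to 55.1 CPM in IA-KA mice, overlapped the IA-PBS ranges of 3.34 to 15.0 and 5.19 to 14.3 CPM more widely, with log2 differences of 1.04 (SE 0.65) and 1.11 (SE 0.52). Without mouse 42 the values of C1qa, C1qb and C1qc were 0.39, 0.71 and 0.48, and so more than 1.5 times smaller.

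C3 was at 0.936, 2.54 and 12.6 CPM in IA-KA mice and at 1.99, 2.63, 1.87, 1.47 and 0.608 CPM in IA-PBS mice, a log2 difference of 1.37 (SE 0.61) that was 0.69 without mouse 42. The receptor genes C3ar1 (0.77, SE 0.26) and C5ar1 (1.04, SE 0.48) had more even values, C3ar1 at 6.87 to 10.4 CPM against 2.69 to 6.98 CPM, with 1 IA-PBS mouse (mouse 2) above the lowest IA-KA mouse. Serping1 had a log2 difference of 0.46 (SE 0.36) and Itgam of 0.56 (SE 0.31).

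In this comparison 0 of the 9 members and 0% of 16157 genes passed the adjusted threshold with edgeR. DESeq2 and voom with quality weights called none of the members either, and 0.0932% and 0.0124% of all genes. At an unadjusted p under 0.05, 5 of the 9 (C1qb, C3, C4b, C3ar1 and C5ar1) were higher, against 2.85% of all genes, and none was separated between treatments, against 0.26% of all genes. The median log2 difference was 1.04 over the members and 0.00 over all genes.

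Microglial and astrocyte markers also had mostly higher estimates at 2 weeks, none past the adjusted threshold. The summed level of the 12 microglial markers was 221 to 469 CPM in IA-KA and 161 to 236 CPM in IA-PBS input libraries, with 12 of 12 higher (median log2 difference 0.62), and 249 to 582 CPM against 200 to 284 CPM in m6A-IP libraries, with 11 of 12 higher (median 0.70). The 8 astrocyte markers had medians of 0.65 and 0.29, with 7 and 6 of 8 higher. No marker of either list was at 0 in all libraries of a group, and in both assays mouse 42 had the highest sum of both lists, as it did for C4b and the C1q genes. Monocyte and neutrophil markers summed to 19.7 to 52.9 CPM in IA-KA and 22.2 to 41.3 CPM in IA-PBS m6A-IP libraries. Higher estimates were not limited to glial lists in input, with 7 of 8 hippocampal, 6 of 8 neuronal, 5 of 6 oligodendrocyte and 4 of 5 endothelial markers. In m6A-IP libraries these were 3 of 8, 3 of 8, 1 of 6 and 2 of 5. All tested markers of monocytes and neutrophils (5 of 5) and of border macrophages (4 of 4) had higher estimates in m6A-IP libraries. So did those of lymphocytes (4 of 4) and blood (4 of 4), with 4 of 6 for meninges and fibroblasts and 2 of 6 for choroid plexus. Over all genes tested, 52.4% in input and 49.8% in m6A-IP libraries had higher estimates. The part of these cells in the results was not tested.

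**Figure D3:**
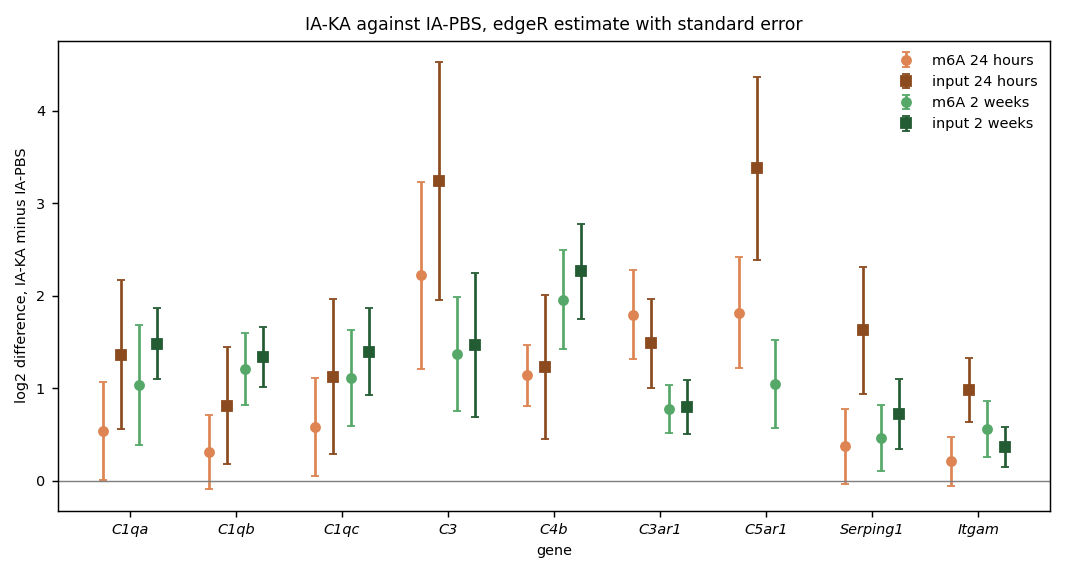
Log2 difference between IA-KA and IA-PBS mice (edgeR estimate, bars are 1 SE) for each complement gene in m6A-IP (circles) and input (squares) libraries at 24 hours (orange and brown) and 2 weeks (light and dark green). Estimates lie above 0 throughout, C3 and C5ar1 are highest at 24 hours (3.24 and 3.38 in input) and C4b is highest at 2 weeks (2.27 in input), where C5ar1 has no input value.

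The change of the IA-KA effect between the times was tested as an interaction. In the m6A-IP libraries the effect at 2 weeks minus that at 24 hours was -0.85 (SE 1.15) for C3, 0.81 (SE 0.70) for C4b and -1.02 (SE 0.50) for C3ar1 on the log2 scale. In the input libraries it was -1.80 (SE 1.58) for C3, 1.04 (SE 0.85) for C4b and -0.69 (SE 0.55) for C3ar1. With single m6A-IP libraries left out, C3 ran from -2.35 (without IA-PBS mouse 71 at 24 hours) to -0.15 (without IA-KA mouse 98), C4b from 0.20 (without IA-KA mouse 42) to 1.05 and C3ar1 from -1.33 to -0.54 (without IA-KA mouse 79). With edgeR 0 of the 9 members passed in either assay, where 0.00573% and 0% of all genes did, and none had an unadjusted p under 0.05, against 2.45% and 3.08% of all genes. Voom called no member in either assay, and 0.356% and 0% of all genes. DESeq2 called no member and 0.0291% of all genes in m6A-IP libraries, and in input libraries, where it called 0.0234% of all genes, it gave none of the 9 an adjusted p. The different order of the members at the 2 times was not shown to be a difference in effect.

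The m6A-IP and input libraries of the same mice allowed a comparison of the assays. The main fit had no term for the mouse, so both libraries of a mouse counted as independent. In IA-PBS mice at 2 weeks, C1qb was at 12.2 to 16.7 CPM in 5 m6A-IP and 5.99 to 8.44 CPM in 3 input libraries, a log2 difference of 0.75 (SE 0.22, edgeR adjusted p = 0.157). With edgeR none of the 8 members tested passed, against 1.12% of all genes, only C1qb had an unadjusted p under 0.05, against 16.9% of all genes, and DESeq2 (with no adjusted p for C3) and voom, which called 4.89% and 7.86% of all genes, called none. Ratios in single mice use library totals alone. On these the median log2 difference over all genes was 0.31 in IA-PBS mice at 2 weeks, against 0.07 after TMM. Among the 13 mice with both libraries, C1qb was higher in the m6A-IP library in 12, mouse 6 being the exception. C4b went the other way in most, with log2 ratios of -0.66 to -0.19 in the 3 IA-PBS mice at 2 weeks and above 0 in 1 of 6 IA-KA mice. The protocol names polyadenylated RNA for the immunoprecipitation and total RNA for the input, so m6A and RNA selection cannot be told apart in these ratios.

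Whether IA-KA changed the members differently in m6A-IP than in input libraries was tested at 2 weeks, again with no term for the mouse. The effect of IA-KA on C4b was smaller by 0.33 (log2 -0.33, SE 0.77) in the m6A-IP libraries, and edgeR called 0 of the 9 members and 0% of all genes, with no member at an unadjusted p under 0.05, against 4.06% of all genes. DESeq2 and voom, which called 0.0248% and 0% of all genes, also called none of the members.

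The 3 C1q genes kept similar proportions across the input libraries and less so across the m6A-IP libraries. Of their summed CPM, C1qa made up 25.0% to 36.8%, C1qb 32.9% to 47.8% and C1qc 23.2% to 35.0% in the 13 input libraries. In the 19 m6A-IP libraries the ranges were wider, with C1qa at 8.6% to 33.4% and C1qb at 35.1% to 61.2%. The lowest C1qa share was that of mouse 6, whose m6A-IP library held 53 counts of C1qa and 379 of C1qb while its input library held 147 and 153. The ratio of C1qa to C1qb in this mouse was thus far lower in the m6A-IP than in the input library.

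Across libraries the C1q genes had the most closely matched levels of all members. Pearson correlations of their log2 CPM were 0.87 (C1qa with C1qb), 0.93 (C1qa with C1qc) and 0.93 (C1qb with C1qc) over the 19 m6A-IP libraries and 0.97, 0.97 and 0.96 over the 13 input libraries. C4b correlated with them at 0.81 to 0.86 and 0.77 to 0.80. In contrast, C3 correlated with the C1q genes at 0.52 to 0.61 and at 0.18 to 0.20, and more closely with C5ar1 (0.69 and 0.78). C3ar1 and C5ar1 correlated at 0.81 and 0.91. The libraries share treatment, time, library set and depth, so these values describe them and carry no test.

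**Figure D4:**
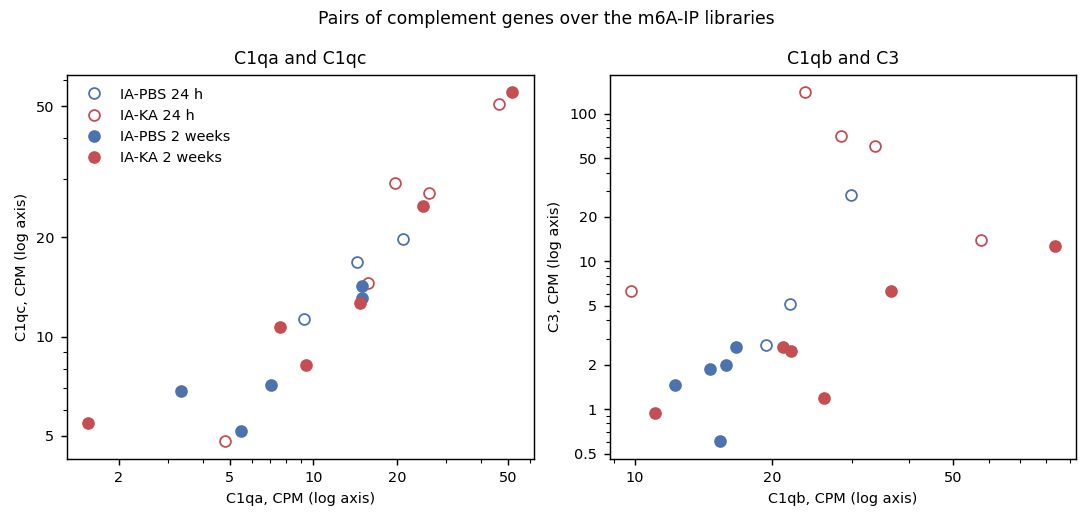
CPM of C1qa and C1qc (left) and of C1qb and C3 (right) in the 19 m6A-IP libraries on log axes (open symbols 24 hours, filled symbols 2 weeks, blue IA-PBS, red IA-KA). C1qa and C1qc vary together (r = 0.93 over all 19), with the libraries of IA-KA mouse 6 and IA-PBS mouse 4 at 2 weeks low in C1qa for their C1qc, whereas C3 reaches 60.6 to 140 CPM in 3 IA-KA mice at 24 hours while C1qb in these mice is at 23.6 to 33.6 CPM.

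Over the same 19 libraries and 11951 genes with a mean of 5 CPM or more, the genes most like the mean of the 3 C1q genes were Tgfbr2 (Pearson r 0.94), a TGF-beta receptor, Fyb (0.935), an adaptor of immune cells, and Axl (0.926), a receptor tyrosine kinase used in the uptake of dying cells. Most like C3 were Stat3 (0.908), a transcription factor of cytokine signalling, Mcm3 (0.905), a subunit of the replicative helicase, and Tgfbi (0.898), a matrix protein. Most like C4b were Ctsd (0.916), a lysosomal protease, Gfap (0.904), the astrocyte intermediate filament, and Gpnmb (0.876), a membrane glycoprotein of phagocytes.

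Of 56 other complement genes listed by role, 53 had a row, and none passed the edgeR threshold between treatments at either time in either assay. In the m6A-IP libraries at 24 hours 31 could be tested, 22 with higher estimates in IA-KA (median 0.19), against 58% of all genes, and all 8 tested genes of the start of the classical and lectin pathways were among these (median 0.94). Of the 16 regulators tested, 8 were higher and 8 lower. No gene of the list had an unadjusted p under 0.05 there.

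In the input libraries at 2 weeks 24 could be tested and 13 had higher estimates (median 0.17), against 52.4% of all genes, and 5 genes were higher and 3 lower at an unadjusted p under 0.05, against 8.41% of all genes higher. Among these, named after their values were seen, were Itgb2, the partner chain of Itgam in complement receptor 3 (1.76, SE 0.60), Clu, a regulator of the terminal complex (1.09, SE 0.39), and C5ar2, a second C5a receptor (-0.79, SE 0.24). In the input libraries at 24 hours 2 of 40 (Csmd2 and Cd93) were higher at that level and none lower, against 4.99% of all genes higher. In the input libraries at 24 hours DESeq2 called 1 of 39 (Cd93), against 1.17% of all genes, and voom 3 of 40 (C1rb, Cd93 and Csmd2), against 5.99%. In input at 2 weeks voom called 1 of 24 (C5ar2), against 2.6% of all genes. C5ar2 was also the 1 listed gene called by edgeR between the assays in IA-PBS mice at 2 weeks, at 6.20 to 12.2 CPM in m6A-IP and 30.2 to 41.6 CPM in input libraries (log2 -2.36, SE 0.27, edgeR adjusted p = 0.0045). There DESeq2 also called Csmd1, and voom Csmd1 and C6.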

How the data were processed

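Hippocampal input and m6A-IP RNA of single mice was sequenced with a stranded total RNA kit. The tables the authors deposited hold raw counts by gene symbol, 1 column per lane and 4 lanes a library, without normalization, and the labels name the build mm10. Aligner and counter: not given in the sources used here. Lanes of 140 columns in 15 files were summed to 35 libraries of 32544 genes, and 8 columns with no labelled sample were not used. The 9 members, the gene lists and the tests were chosen with earlier results of these data known.

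Counts were fitted with edgeR 4.0.16 in R 4.3.3 (TMM, filterByExpr, robust quasi-likelihood test), with Benjamini-Hochberg adjustment over all genes tested and a call threshold of 0.05. Fits held the compared groups alone, except input at 24 hours, which used the 13 input libraries of 100000 or more counts. The SE is the absolute log2 difference over the square root of F. All 9 members were named, other complement genes when past the threshold between treatments (those named for other reasons were chosen after their values were seen), and the 3 genes most alike by Pearson correlation of log2 CPM (prior count 2). P-values between treatments measure the spread between mice. The main fits across assays took both libraries of a mouse as independent, so their p-values do not measure that spread alone. With 0 counts, up to 3 counts of a library's total remain possible, which covers counting error only.

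Alternatives were DESeq2 1.42.0, voom with quality weights (limma 3.58.1), library size scaling, other filters, removal of mitochondrial and ribosomal RNA genes, each library left out, and the mouse as a replicate block. Chosen after the data were seen were fits within 1 library set or without libraries of 23000 or more genes detected. Mouse numbers pair the assays because the labels give 1 mouse for both libraries. In 12 mice the deviations of both libraries from their group means correlated at -0.0829 to 0.894, and 9 were closest to their own. The fits were tested on simulated data. Promoters and coordinates are from RefSeq (GRCm38.p6), and plots used Python 3.11.15 with pandas 2.3.3, numpy 2.4.6 and matplotlib 3.10.9. Some results on the listed complement genes are not reported here.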

Additional observations from a re-analysis of the deposited data

Results flagged for a closer look

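Of 36 combinations of member and group with 4 or more libraries, 3 held 1 library far from the others, and about 1 in 20 independent groups would by chance. The members vary together within a library, so these groups are not independent. C1qb reached 83.6 CPM in the m6A-IP library of IA-KA mouse 42 at 2 weeks, against 11.1 to 36.5 CPM in the other 5 libraries. C1qc was at 32.8 CPM in the input library of the same mouse, against 6.65 to 14.5 CPM in the other 5. C4b was at 13.7 CPM in the m6A-IP library of IA-KA mouse 8 at 24 hours, against 38.1 to 46.1 CPM in the other 4.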

How the results depend on the processing

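No member passed in any comparison with edgeR as described, so the number called was 0 throughout. It was 1 in the m6A-IP libraries at 24 hours with DESeq2 (0.978% of all genes) and 3 with voom (6.81%). Within the prefix 4 set it was 1 (C4b), against 356 of 16903 genes. It was 4 in input at 24 hours with voom (5.99% of all genes). With all labelled 24 hour input libraries, including those of 3171, 4621 and 34486 counts, it was 1 (C5ar1), against 75 of 12858 genes. Within the input set without a prefix, with 1 IA-PBS mouse at 24 hours, the log2 difference of C3 was 3.75. The number called was 3 in input at 2 weeks with DESeq2 (0.822% of all genes) and with voom (2.6%). Each library left out in turn gave 0 to 0 calls in all comparisons. With the mouse as a replicate block the number called stayed 0 for m6A-IP against input and for the change of the IA-KA effect between assays. The pairing thus changed no call of a member. Over all genes, in IA-PBS mice at 2 weeks with both libraries, edgeR called 57 of 14168 with the block and 297 without it.

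Among the refitted single values, 850 kept their direction and side of the threshold, 18 passed it and 6 changed sign. Itgam in the m6A-IP libraries at 24 hours was -0.14 with voom, -0.11 with the library set as a block and -0.11 within the prefix 4 set, and C1qb there was -0.064 to 0.52 with single libraries left out, lowest without IA-KA mouse 79. C4b, m6A-IP minus input, was -0.98 to 0.046 with single libraries left out, highest without the input of IA-KA mouse 42, and 0.071 over mice with both libraries without the block. The causes were not tested. Input at 24 hours could not be fitted without IA-PBS mouse 1. Depth limits C3 and C5ar1 most, which had under 10 counts in the IA-PBS input libraries at 2 weeks.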
